A study of Homo sapiens with 6 samples.

Results

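The 35 genes described here encode the proteins that bring glucose into the cell, break it down to pyruvate, exchange pyruvate with lactate, and carry pyruvate into the mitochondrion and on to acetyl-CoA. They were taken as a list of gene symbols, and 35 of 35 were found among the 20263 genes of the deposited table. The cells were MV4-11, an established human line of acute myeloid leukemia with the FLT3-ITD mutation of a receptor kinase, entered in the labels with genotype WT. They were cultured for 24 h with both drugs (VEN+CSA), with venetoclax alone at 100 nM (VEN), or with cyclosporine A alone at 2.5 µM (CSA), and each group had 2 RNA-seq libraries. Venetoclax inhibits the survival protein BCL2, and cyclosporine A binds cyclophilins and inhibits calcineurin. The doses come from the growth protocol, which does not give those of the combination separately. The labels' treatment field speaks of gavage, which cannot apply to cultured cells, and was set aside. Untreated cells were not analysed here, so each comparison is between drug treatments, and the VEN+CSA libraries serve in both comparisons of the combination. MV4-11 is a single cell line, and the labels do not say whether replicates are separate cultures, so the p-values reflect a spread between libraries that may be technical only.

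Glycolysis splits glucose into pyruvate in the cytosol and yields ATP and NADH. Lactate dehydrogenase, a tetramer of LDHA and LDHB subunits, interconverts pyruvate and lactate and so regenerates NAD+ for the pathway. Lactate leaves through monocarboxylate transporters. Pyruvate enters mitochondria through the MPC1 and MPC2 carrier and is turned into acetyl-CoA by pyruvate dehydrogenase, which the PDK kinases switch off. Many of these genes are textbook targets of the hypoxia-inducible factors (HIF) and of MYC, and leukemia cells commonly run glycolysis at a high rate even in the presence of oxygen.

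Total counts per library ranged from 26567900 to 30738957. Levels are given as depth-scaled counts (CPM), further scaled by edgeR's trimmed mean of M-values (TMM). VEN replicate 2 stood apart: 41.5% of its counts came from mitochondrially encoded genes, against 7.41% to 15.2% in the other 5 libraries. For many of the results that rest on it, values without it are also given. All 11 genes listed as markers of a myeloid leukemia line were detected, between 4.26 and 926 CPM. Their summed levels were 2294 and 2266 CPM in VEN+CSA, 2437 and 2279 CPM in VEN, and 2364 and 2419 CPM in CSA libraries. FLT3, at 838 to 926 CPM, was the highest and weighed most in these sums, which can hide changes of single genes. Defining T-cell, erythroid and epithelial genes (CD3D, CD3E, HBB, HBA1, EPCAM) had no count in any library, and the highest level of any T-cell, erythroid, fibroblast or epithelial marker was 1.14 CPM, for KRT8.

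In the cells given both drugs LDHA, the lactate dehydrogenase subunit that favours lactate formation, had the lowest level relative to either drug alone of all 35 genes. It had 277 and 232 CPM in VEN+CSA cells, against 739 and 639 CPM in VEN cells and 668 and 636 CPM in CSA cells. Most other members lay close to their level with a single drug. LDHA was 1 of 9 members lower in both VEN+CSA libraries than in all 4 single-agent libraries, a pattern found in 9.73% of all genes tested. The others were SLC2A3, HK1, PFKFB4, ALDOC, ENO2, PDK3, PDHA1 and DLAT.

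All 35 genes passed the filter on low counts. With all 6 libraries edgeR's quasi-likelihood test called 0 of the 35 at an adjusted p under 0.05 in each of the 3 comparisons, as it called 0% of the 12690 genes tested. DESeq2 called 311, 60 and 63 of those genes for VEN+CSA against VEN, VEN+CSA against CSA and VEN against CSA (2.45%, 0.473% and 0.496%). Of the 35 it called LDHA, as lower, in each comparison of the combination, where 1.09% and 0.213% of all genes were called lower, and 0 members between VEN and CSA. At an unadjusted p under 0.05 edgeR had 4 members, all lower, in VEN+CSA against VEN (LDHA, ALDOC, ENO2 and PDK3), where 10.8% of all genes met this rule and 5.48% met it by being lower. It had 4, all lower, in VEN+CSA against CSA (LDHA, ALDOC, ENO2 and PFKFB4), where 3.64% met the rule and 1.69% met it by being lower. Between VEN and CSA 0 members met it, against 4.8% of all genes.

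Of the 35 genes, 25 had a log2 fold change below 0 in VEN+CSA against VEN and 29 in VEN+CSA against CSA. The median was −0.11 and −0.23, beside −0.01 and −0.00 over all genes tested. In 0 members did both VEN+CSA libraries lie above all 4 single-agent libraries, beside 10.5% of all genes. Against VEN alone both VEN+CSA libraries lay below both VEN libraries in 11 members (18.9% of all genes) and above them in 1, LDHB (19.2%). Against CSA alone they lay below both CSA libraries in 21 members (23.7% of all genes) and above them in 3, PFKFB3, BPGM and SLC16A1 (23.5%). The median against VEN depended on the VEN library used, being −0.24 with 30 of 35 below 0 without VEN replicate 2 and −0.02 without VEN replicate 1. The replicate SD of the members' median was 0.12 on the log2 scale, close in size to the median against VEN and smaller than that against CSA. With no scaling beyond library size the median of all genes became 0.26, −0.04 and −0.31 in the 3 comparisons, so changes are read relative to the TMM scale.

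**Figure D1:**
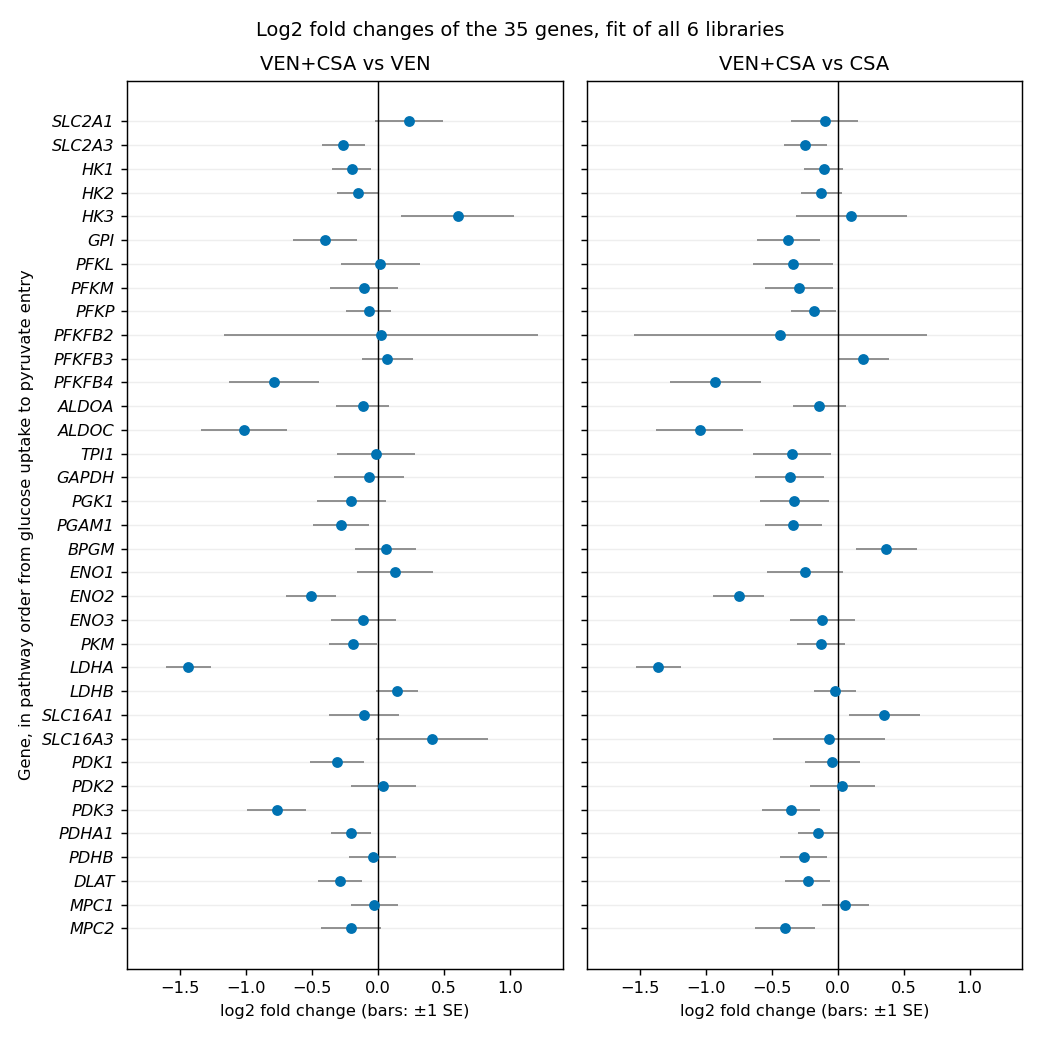
Log2 fold change of each of the 35 genes (points; bars are 1 SE either way) for VEN+CSA against VEN, left, and VEN+CSA against CSA, right, from the edgeR fit of all 6 libraries, in pathway order. LDHA lies lowest in both panels (−1.44 and −1.36), followed by ALDOC and PFKFB4, and most other genes lie near 0.

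Glucose enters through SLC2A1 (GLUT1) and SLC2A3 (GLUT3) and is trapped by hexokinase. SLC2A1 had 65.7 and 58.7 CPM in VEN+CSA cells, against 64.9 and 40.6 CPM in VEN cells and 71.6 and 61.6 CPM in CSA cells. The groups overlapped, and the lowest library was VEN replicate 2. SLC2A3 had 33.2 and 32.7 CPM in VEN+CSA cells, against 42.8 and 36.3 CPM in VEN cells and 38.2 and 40.0 CPM in CSA cells. Both combination libraries were below the rest, but the gene did not pass the test in edgeR or DESeq2. SLC2A3 has the near-identical copy SLC2A14, listed at no more than 1.02 CPM, and reads could be split between them.

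Among the hexokinases HK1 and HK2, which hold the enzyme at the outer mitochondrial membrane, had similar levels, and HK3 was a minor member. HK1 had 154 and 172 CPM in VEN+CSA cells, against 193 and 181 CPM in VEN cells and 173 and 177 CPM in CSA cells. HK2 had 186 and 166 CPM in VEN+CSA cells, against 206 and 185 CPM in VEN cells and 199 and 184 CPM in CSA cells. HK3 had 14.6 and 11.6 CPM in VEN+CSA cells, against 12.2 and 4.99 CPM in VEN cells and 13.2 and 11.2 CPM in CSA cells. Per kilobase HK1 took 53.6% to 59.8% of the 3 hexokinase genes over the 6 libraries, HK2 35.8% to 40.4% and HK3 1.94% to 5.99%, with the lowest HK3 share in VEN replicate 2. GPI, which turns glucose 6-phosphate into fructose 6-phosphate, had 759.7 and 642 CPM in VEN+CSA cells, against 1125 and 729.5 CPM in VEN cells and 911 and 904 CPM in CSA cells. Its log2 fold change was −0.40 (SE 0.24) against VEN and −0.37 (SE 0.24) against CSA. Against VEN it was −0.68 without VEN replicate 2 and −0.06 without VEN replicate 1.

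Phosphofructokinase, the committed step, was made up of PFKP and PFKL. PFKP had 283 and 290.2 CPM in VEN+CSA cells, against 338 and 264 CPM in VEN cells and 321 and 328 CPM in CSA cells. PFKL had 268 and 233 CPM in VEN+CSA cells, against 321 and 174 CPM in VEN cells and 333 and 301 CPM in CSA cells. The muscle form PFKM ranged from 8.49 to 12.7 CPM and took 1.52% to 1.73% of the family per kilobase. Both VEN+CSA libraries were below both CSA libraries in all 3 genes, as in 23.7% of all genes, while VEN replicates lay on both sides of them.

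The PFKFB enzymes make and remove fructose 2,6-bisphosphate, the activator of phosphofructokinase. PFKFB4 (ENSG00000114268, chr3:48517684-48562015, minus strand) had 16.7 and 14.5 CPM in VEN+CSA cells, against 36.1 and 17.8 CPM in VEN cells and 29.1 and 30.3 CPM in CSA cells. Both combination libraries were the lowest of the 6, but VEN replicate 2 lay close to them. The log2 fold change was −0.79 (SE 0.34, edgeR adjusted p = 0.488) against VEN and −0.93 (SE 0.34, edgeR adjusted p = 1.00) against CSA. Without VEN replicate 2 the value against VEN was −1.20 (edgeR adjusted p = 0.0639), and without VEN replicate 1 it was −0.19. DESeq2 without VEN replicate 2, an alternative chosen after seeing the data, called PFKFB4 lower in both comparisons (adjusted p = 7.07e-06 and 6.15e-05), against ranges of 7.07e-06 to 0.997 and 6.15e-05 to 1.00 over the 18 alternatives with edgeR, DESeq2 or limma.

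PFKFB3, the other PFKFB gene with an appreciable level, had 15.2 and 13.0 CPM in VEN+CSA cells, against 14.4 and 12.5 CPM in VEN cells and 12.1 and 12.5 CPM in CSA cells. PFKFB4 therefore took a smaller share of the family in the combination, at 57.4% and 58.0% per kilobase in VEN+CSA cells, against 75.2% and 64.1% in VEN cells and 74.5% and 74.6% in CSA cells. PFKFB2 was at most 0.746 CPM. It had 0 counts in VEN replicate 2, where 3 counts, the limit that a count of 0 allows, equal 0.159 CPM.

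The aldolases split fructose 1,6-bisphosphate. ALDOA, the main form, had 778 and 790.2 CPM in VEN+CSA cells, against 989.6 and 710.5 CPM in VEN cells and 899 and 828 CPM in CSA cells. ALDOC (ENSG00000109107, chr17:28573115-28577264, minus strand), the form known from brain, had 31.2 and 36.9 CPM in VEN+CSA cells, against 91.0 and 46.4 CPM in VEN cells and 71.0 and 69.3 CPM in CSA cells. Both combination libraries lay below the other 4, and the VEN replicates differed more from each other than VEN replicate 2 did from the combination. ALDOC took 3.09% and 3.59% of the summed aldolase level per kilobase in VEN+CSA cells, against 6.83% and 4.95% in VEN cells and 5.92% and 6.25% in CSA cells.

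For ALDOC edgeR gave a log2 fold change of −1.02 (SE 0.33, adjusted p = 0.402) against VEN and −1.04 (SE 0.33, adjusted p = 1.00) against CSA. Without VEN replicate 2 edgeR called it lower against VEN at −1.42 (SE 0.14, adjusted p = 0.0491) and not against CSA at −1.05 (SE 0.12, adjusted p = 0.0849). Without VEN replicate 1 the value against VEN was −0.45. Over the 18 alternatives adjusted p from edgeR, DESeq2 or limma ran from 1.21e-10 to 0.997 against VEN and from 1.94e-08 to 1.00 against CSA. ALDOC overlaps AC005726.1 on the same strand, which had at most 17.8 CPM.

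GAPDH, which makes the NADH of glycolysis, had 3722 and 3851 CPM in VEN+CSA cells, against 4813 and 3139 CPM in VEN cells and 4898 and 4848 CPM in CSA cells. It was the highest of the 35 genes per kilobase of transcript (2005 to 3129 CPM per kilobase over the 6 libraries), with ENO1 second (812 to 1487), whichever transcript length was used. The ranges of LDHB, ALDOA, TPI1 and GPI, which came next, overlapped, and their order changed with the transcript length. The log2 fold change of GAPDH was −0.07 (SE 0.26) against VEN and −0.36 (SE 0.26) against CSA. Against VEN its sign turned to 0.12 under library size alone and to 0.27 without VEN replicate 1, and it was −0.34 without VEN replicate 2. GENCODE 29 names 62 GAPDH pseudogenes, 13 of PGAM1 and 6 of LDHA, and 0 of them are in the count table, so reads of such copies may have been counted with the gene.

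Triose phosphate isomerase, TPI1, had 625 and 543 CPM in VEN+CSA cells, against 761 and 418 CPM in VEN cells and 782 and 701 CPM in CSA cells. PGK1, the first ATP-yielding enzyme, had 655 and 511 CPM in VEN+CSA cells, against 820.1 and 522 CPM in VEN cells and 768 and 696 CPM in CSA cells. PGAM1, the phosphoglycerate mutase, had 490.0 and 434 CPM in VEN+CSA cells, against 664 and 459.9 CPM in VEN cells and 601 and 565 CPM in CSA cells. In all 3 genes the combination libraries lay below both CSA libraries, as in 23.7% of all genes. VEN replicate 2 lay below both combination libraries for TPI1 and between them for PGK1 and PGAM1. The log2 fold change of PGAM1 was −0.28 (SE 0.21) against VEN and −0.34 (SE 0.21) against CSA. Against VEN it was −0.52 without VEN replicate 2 and 0.01 without VEN replicate 1. BPGM, which makes 2,3-bisphosphoglycerate, ranged from 7.87 to 11.9 CPM.

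The enolases make phosphoenolpyruvate. ENO1 had 2304 and 1957 CPM in VEN+CSA cells, against 2460.0 and 1446 CPM in VEN cells and 2648 and 2419 CPM in CSA cells, and it held at least 98.8% of the enolase level per kilobase. ENO2 (ENSG00000111674, chr12:6913745-6923698, plus strand), known as the neuronal form, had 11.0 and 10.1 CPM in VEN+CSA cells, against 14.9 and 15.0 CPM in VEN cells and 19.3 and 16.1 CPM in CSA cells. ENO2 replicates lay close together, and the VEN+CSA libraries were below the other 4. The log2 fold change was −0.51 (SE 0.19, edgeR adjusted p = 0.438) against VEN and −0.75 (SE 0.19, edgeR adjusted p = 1.00) against CSA. It passed in 0 of 18 alternatives against VEN and in 1 against CSA. LRRC23 overlaps ENO2 on the same strand and had at most 9.42 CPM, so a share of these counts cannot be assigned with certainty. ENO3, the muscle form, ranged from 5.02 to 7.11 CPM.

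Pyruvate kinase, PKM, had 860.1 and 1130.4 CPM in VEN+CSA cells, against 1141 and 1132 CPM in VEN cells and 1089.6 and 1085 CPM in CSA cells. The VEN+CSA replicates differed by more than the group means did, and PKM did not pass the test in edgeR or DESeq2.

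**Figure D2:**
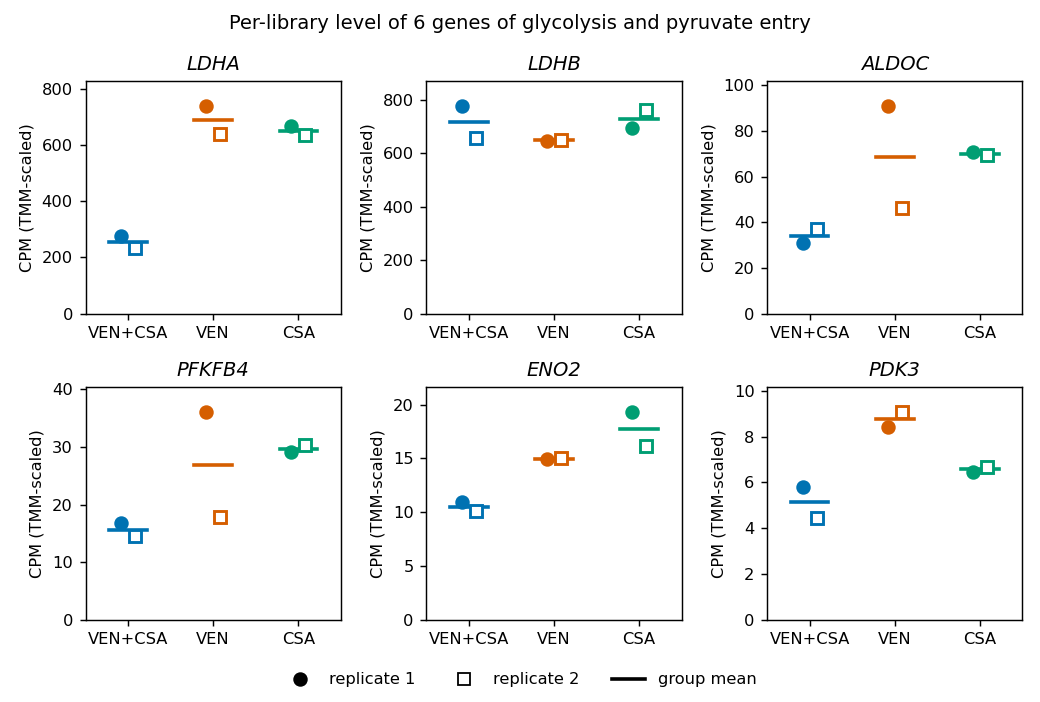
Level of 6 genes (CPM, TMM-scaled, axes from 0) in each VEN+CSA, VEN and CSA library, with filled circles for replicate 1, open squares for replicate 2 and a bar at the group mean. LDHA is at 277 and 232 CPM in VEN+CSA libraries, below the 636 to 739 CPM of the other 4, LDHB overlaps between VEN+CSA and CSA, and ALDOC and PFKFB4 differ widely between the VEN replicates.

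Lactate dehydrogenase showed the largest difference. LDHA (ENSG00000134333, GRCh38 chr11:18394388-18408425, plus strand) encodes its M subunit. Both combination libraries lay below all 4 single-agent libraries, at a mean of 254 ± 31.4 CPM in VEN+CSA, 689 ± 70.9 CPM in VEN and 652 ± 22.8 CPM in CSA cells (SD, n = 2 each). The fitted LDHA level in VEN+CSA cells was 0.369 times that in VEN cells and 0.390 times that in CSA cells. In a bulk sample, fewer cells with the transcript and less transcript per cell cannot be told apart.

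The test of LDHA depended on the model. With all 6 libraries, edgeR's quasi-likelihood test gave a log2 fold change of −1.44 (SE 0.17, Benjamini-Hochberg adjusted p = 0.108) against VEN. Against CSA edgeR gave −1.36 (SE 0.17, adjusted p = 0.232). Neither passed the threshold of 0.05. LDHA passed both comparisons in DESeq2 (adjusted p = 4.56e-09 against VEN and 7.95e-08 against CSA). It also passed both in edgeR when VEN replicate 2 was left out and when VEN replicate 1 was left out. The log2 fold change against VEN was then −1.53 and −1.33. Each of these fits had a lone VEN library, and the second rested on VEN replicate 2, which stood apart. Over the 18 alternatives to the fit of all 6 libraries, the log2 fold change against VEN lay between −1.57 and −1.19, with adjusted p from edgeR, DESeq2 or limma of 1.04e-15 to 0.790. Against CSA it lay between −1.49 and −1.24, with adjusted p from the same tools of 1.76e-18 to 1.00. The size and direction thus held in every setting tried, while the call held in 4 of 18 alternatives against VEN and in 6 of 18 against CSA.

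LDHB did not share this pattern. LDHB (ENSG00000111716, GRCh38 chr12:21635342-21757857, minus strand) encodes the H subunit, which favours the use of lactate. It had 776 and 656 CPM in VEN+CSA cells, against 645 and 649 CPM in VEN cells and 695 and 759.6 CPM in CSA cells. The combination libraries spanned the range of the CSA libraries and lay just above those of VEN. The log2 fold change was 0.15 (SE 0.16) against VEN and −0.02 (SE 0.16) against CSA. The sign against CSA turned to 0.04 without CSA replicate 2 and to 0.09 without VEN+CSA replicate 2.

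Per kilobase of transcript, LDHA made up 20.1% and 19.9% of the sum of LDHA and LDHB in VEN+CSA cells, against 44.6% and 40.9% in VEN cells and 40.3% and 37.1% in CSA cells. The ratio of LDHA to LDHB levels per kilobase was 0.251 and 0.249 in VEN+CSA cells, against 0.806 and 0.692 in VEN cells and 0.676 and 0.589 in CSA cells. The subunit balance of the transcripts was thus nearly the same in both combination libraries and lay below that of every single-agent library, including VEN replicate 2. With the length of the longest coding transcript in place of the principal one, the LDHA shares were 18.5% and 18.4% in VEN+CSA, 42.2% and 38.5% in VEN, and 38.0% and 34.8% in CSA libraries.

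**Figure D3:**
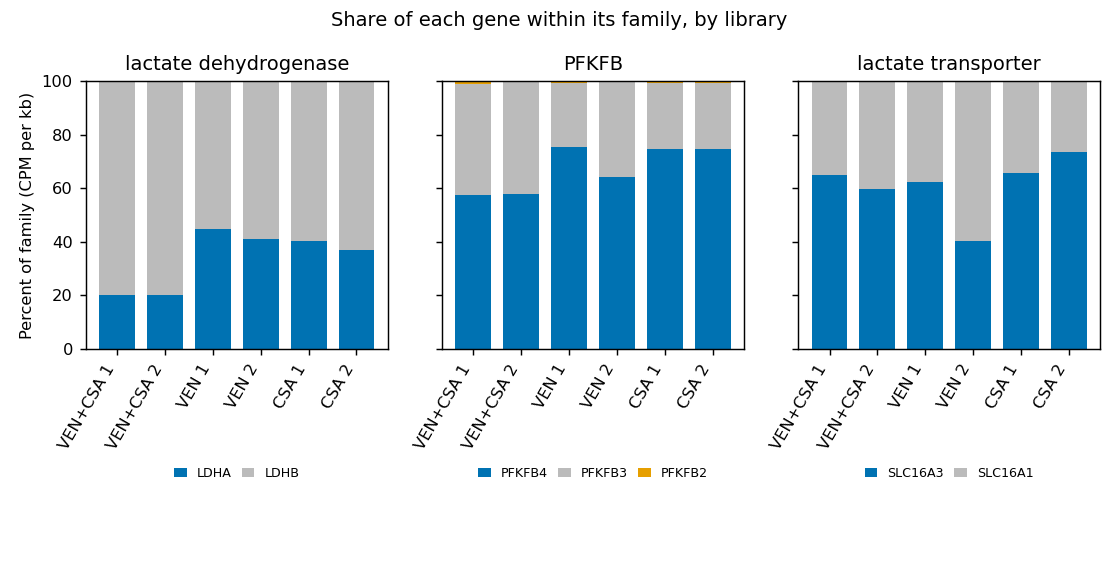
Share of each gene in the summed level of its family (percent of CPM per kilobase, 0 to 100) in the VEN+CSA, VEN and CSA libraries, for lactate dehydrogenase, the PFKFB enzymes and the lactate transporters. LDHA takes 20.1% and 19.9% in VEN+CSA libraries and 37.1% to 44.6% in single-agent libraries, while SLC16A3 is lowest in VEN replicate 2 (40.3%).

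The promoter windows of LDHA, LDHB, ALDOC and PFKFB4 are shown because LDHA, ALDOC and PFKFB4 had the lowest log2 fold changes in both comparisons of the combination, while LDHB, the partner of LDHA, lay near 0. Each is the 250 bases upstream of a RefSeq transcript start (GRCh38.p14), on the gene's strand and 5′ to 3′. Capitals mark ACGTG or GCGTG on either strand, the core letters that HIF recognises, and TGACGTCA, the cAMP response element. CACGTG, the E-box bound by MYC and MAX, contains ACGTG on both strands and is therefore also in capitals. The windows lie at chr11:18394313-18394562 for the upstream of the 2 LDHA starts, at chr12:21657843-21658092 for LDHB, at chr17:28576896-28577145 for ALDOC and at chr3:48556804-48557053 for PFKFB4.
LDHA: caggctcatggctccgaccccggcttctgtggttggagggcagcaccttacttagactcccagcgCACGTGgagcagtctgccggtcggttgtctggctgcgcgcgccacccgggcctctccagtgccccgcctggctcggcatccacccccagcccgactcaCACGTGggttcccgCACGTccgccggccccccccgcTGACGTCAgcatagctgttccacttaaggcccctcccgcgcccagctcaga
LDHB: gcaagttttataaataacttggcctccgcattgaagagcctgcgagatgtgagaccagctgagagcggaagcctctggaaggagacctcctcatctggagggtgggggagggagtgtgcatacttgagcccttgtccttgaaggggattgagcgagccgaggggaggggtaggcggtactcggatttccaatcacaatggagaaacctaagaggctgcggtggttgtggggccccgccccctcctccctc
ALDOC: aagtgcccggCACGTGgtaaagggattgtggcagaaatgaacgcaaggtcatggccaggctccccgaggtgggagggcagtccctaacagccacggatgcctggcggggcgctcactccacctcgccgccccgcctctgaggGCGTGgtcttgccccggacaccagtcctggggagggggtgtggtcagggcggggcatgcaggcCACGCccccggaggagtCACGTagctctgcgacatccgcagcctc
PFKFB4: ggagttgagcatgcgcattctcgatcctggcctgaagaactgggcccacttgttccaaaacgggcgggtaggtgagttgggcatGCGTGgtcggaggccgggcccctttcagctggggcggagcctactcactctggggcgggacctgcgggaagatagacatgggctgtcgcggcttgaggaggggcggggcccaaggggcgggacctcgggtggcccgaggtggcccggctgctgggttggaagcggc

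The LDHA window held 3 separate stretches with ACGTG, 2 of them as CACGTG, and 1 TGACGTCA. The window of the downstream LDHA start, at chr11:18396101-18396350, held 1 GCGTG. The LDHB window held none of these letters. The ALDOC window held 4 stretches with ACGTG or GCGTG, 1 of them as CACGTG, the PFKFB4 and ENO2 windows held 1 stretch each, and the PDK3 window held 2. Among 35116 windows of this kind over 27305 genes, 43.2% held ACGTG or GCGTG, 6.34% held CACGTG and 1.65% held TGACGTCA. Among the 63 windows found for 32 of the 35 genes the shares were 54.0%, 12.7% and 1.59%. These are descriptions of letters in a window and say nothing of binding.

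Lactate is exported by SLC16A3 (MCT4) and carried in either direction by SLC16A1 (MCT1). SLC16A3 had 136 and 106 CPM in VEN+CSA cells, against 129 and 52.5 CPM in VEN cells and 138 and 115 CPM in CSA cells. SLC16A1 had 84.0 and 82.4 CPM in VEN+CSA cells, against 90.2 and 89.0 CPM in VEN cells and 82.3 and 47.9 CPM in CSA cells. A single library stood apart in each gene, VEN replicate 2 in SLC16A3 and CSA replicate 2 in SLC16A1, and the combination did not lie outside the range of the single drugs. SLC16A3 took 65.0% and 59.5% of the 2 transporter genes per kilobase in VEN+CSA cells, against 62.1% and 40.3% in VEN cells and 65.8% and 73.4% in CSA cells.

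The PDK kinases phosphorylate and inactivate pyruvate dehydrogenase. PDK3 (ENSG00000067992, chrX:24465221-24541862, plus strand) had 5.82 and 4.43 CPM in VEN+CSA cells, against 8.44 and 9.07 CPM in VEN cells and 6.44 and 6.69 CPM in CSA cells. The 3 groups did not overlap, with VEN highest. The log2 fold change of PDK3 was −0.77 (SE 0.22, edgeR adjusted p = 0.356) in VEN+CSA against VEN and −0.36 (SE 0.22, edgeR adjusted p = 1.00) in VEN+CSA against CSA, and it passed in 0 of 18 alternatives in either. The PDK3 value against CSA was −0.57 without VEN+CSA replicate 1 and −0.17 without VEN+CSA replicate 2. PDK1 had 49.7 and 54.1 CPM in VEN+CSA cells, against 53.5 and 75.4 CPM in VEN cells and 52.9 and 53.9 CPM in CSA cells, with VEN replicate 2 the only library above 54.1 CPM. PDK2 ranged from 15.8 to 22.8 CPM, with no order between groups.

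The genes of pyruvate transport and of the pyruvate dehydrogenase complex differed little. PDHA1, the E1 alpha subunit, had 111 and 124 CPM in VEN+CSA cells, against 131 and 139.8 CPM in VEN cells and 126 and 135 CPM in CSA cells. DLAT, the E2 subunit, had 83.9 and 67.9 CPM in VEN+CSA cells, against 96.1 and 89.2 CPM in VEN cells and 88.4 and 89.2 CPM in CSA cells. Both genes were lower in VEN+CSA libraries than in the other 4, as 9.73% of all genes were, and neither passed the test in edgeR or DESeq2. PDHB, the E1 beta subunit, ranged from 35.6 to 49.8 CPM. The carrier subunits MPC1 and MPC2 ranged from 20.5 to 24.3 CPM and from 22.3 to 32.5 CPM, and MPC2 was at 25.4 and 22.3 CPM in VEN+CSA cells, below the 31.8 and 31.0 CPM of CSA cells.

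Between the single drugs the median log2 fold change of VEN against CSA was −0.03 (all genes −0.00), with 14 members above 0 and 21 below. It was 0.07, with 24 above 0 and 11 below, without VEN replicate 2, and −0.24 without VEN replicate 1. PDK3 (0.41, SE 0.22), SLC16A1 (0.46, SE 0.27), BPGM (0.31, SE 0.23) and PDK1 (0.27, SE 0.21) came closest to a call, with edgeR adjusted p of 0.633 for PDK3, SLC16A1 and BPGM and 0.634 for PDK1. The value for SLC16A1 followed CSA replicate 2 and was 0.12 without it. PDK1 followed VEN replicate 2 and was −0.00 without it, and BPGM was 0.20 without that library. Both VEN libraries lay above both CSA libraries in 5 members, where 20.8% of all genes did, and below them in 4, where 19.9% did. LDHA had nearly the same level with either drug alone.

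VEN replicate 2 differed from its replicate across many of these genes. The log2 difference between the VEN replicates, replicate 2 minus replicate 1, had a median of −0.24 over the 35 genes, with 27 below 0 and a range of −1.32 to 0.49. The 21 members with a transcript GC content of 50% or more had a median of −0.56, and the 14 members under 50% a median of −0.03. Across the 35 genes the difference had r = −0.50 with GC content for VEN, 0.04 for VEN+CSA and −0.07 for CSA. Across 12680 genes r was −0.54 for VEN, −0.14 for VEN+CSA and −0.17 for CSA, so a weaker trend was present in the other groups too. These are correlations across genes of the same libraries, which are not independent replicates. ALDOC and PFKFB4 were among the members with a large difference, whereas LDHA, at −0.21, and ENO2, at 0.01, were not. The part of GC content in any result was not tested beyond the fit with each library's GC trend removed, in which the members' medians were −0.18 against VEN and −0.16 against CSA. Of 12680 genes edgeR then called 49 against VEN and 0 against CSA, with 0 members among them.

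**Figure D4:**
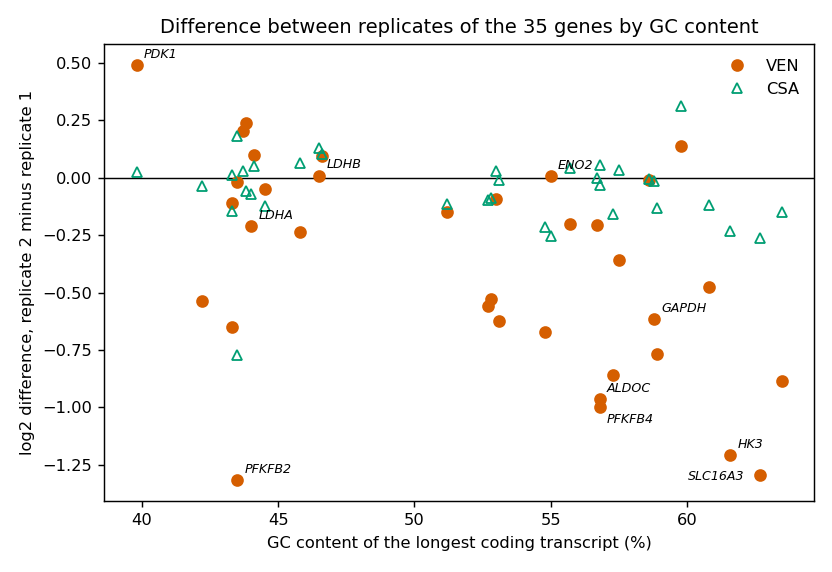
Log2 difference of replicate 2 minus replicate 1 for each of the 35 genes (y axis) against the GC content of its longest coding transcript in percent (x axis), for VEN (filled circles) and CSA (open triangles). VEN differences reach −1.32 and have a median of −0.56 at a GC content of 50% or more, while most CSA differences lie near 0.

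Without VEN replicate 2 edgeR called 49 of 12940 genes (0.379%) in VEN+CSA against VEN and 24 (0.185%) in VEN+CSA against CSA. Among the 35, LDHA and ALDOC fell against VEN, where 0.147% of all genes were called lower, and LDHA fell against CSA, where 0.085% were. DESeq2 on the same libraries, a choice made after seeing the data, called 490 genes (3.79%) against VEN and 256 (1.98%) against CSA. It called 5 members lower against VEN (LDHA, ALDOC, PFKFB4, GPI and PGAM1, with 1.59% of all genes called lower) and 5 against CSA (LDHA, ALDOC, PFKFB4, ENO2 and GAPDH, with 0.981%). With VEN replicate 1 left out, so that VEN replicate 2 stood alone, edgeR called 3426 genes (26.4%) against VEN, among them 6 members. LDHA and PDK1 were then called lower in VEN+CSA (13.3% of all genes were), and SLC2A1, HK3, PFKL and SLC16A3 were called higher (13.1% were). Against CSA that fit called 24 genes (0.185%), with LDHA as the 1 member, called lower as 0.0849% of all genes were. In that fit 4385 genes (33.8%) and 10 members differed between VEN and CSA. LDHA was called lower in VEN+CSA against both drugs in each of these 3 fits, and ALDOC and PFKFB4 were so in the DESeq2 fit.

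The neighbouring pathways were read from lists of textbook genes. Of 17 tested other genes of glycolysis and pyruvate entry (29 listed, 29 in the table), 10 were above 0 and 7 below in VEN+CSA against VEN, with a median of 0.07, and 9 and 8 in VEN+CSA against CSA, with a median of 0.01. PDK4, a further kinase of pyruvate dehydrogenase, had no count. PDHX, the E3-binding protein of the pyruvate dehydrogenase complex, had 30.8 and 33.1 CPM in VEN+CSA cells, against 38.0 and 44.1 CPM in VEN cells and 32.3 and 38.7 CPM in CSA cells. The 20 genes of the tricarboxylic acid cycle had medians of −0.00 and −0.07. At an unadjusted edgeR p under 0.05, 0 genes of these 2 lists stood out in either comparison, where 10.8% and 3.64% of all genes did. With all 6 libraries edgeR and DESeq2 each called 0 of them.

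The HIF pathway was examined because many of the 35 genes are its targets. Of 12 tested other HIF targets (15 listed, 14 in the table), 9 were below 0 against VEN (median −0.72) and 8 against CSA (median −0.26). At an unadjusted edgeR p under 0.05, 5 were lower and 3 higher against VEN, where 10.8% of all genes met this rule. Against CSA 3 were lower and 2 higher, where 3.64% met it. With all 6 libraries edgeR called 0 of the 12, as it called 0% of all genes. DESeq2 called 3 higher and 2 lower against VEN, where it called 2.45% of all genes. It called 1 in each direction against CSA, where it called 0.473%. NDRG1, a stress-induced gene of differentiation, had 62.2 and 62.9 CPM in VEN+CSA cells, against 148 and 129 CPM in VEN cells and 103 and 108 CPM in CSA cells. VEGFA, the vascular growth factor, ran the other way, with 63.7 and 57.0 CPM in VEN+CSA cells, against 24.4 and 24.9 CPM in VEN cells and 32.4 and 35.4 CPM in CSA cells. PLIN2, of the lipid droplet coat, also ran higher, with 55.6 and 55.9 CPM in VEN+CSA cells, against 26.1 and 31.0 CPM in VEN cells and 40.7 and 38.2 CPM in CSA cells.

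The list of HIF targets thus held genes on both sides, and its median against VEN depended on VEN replicate 2, being −0.35 without it. That fit tested 13 genes, since P4HA2, at no more than 0.360 CPM, then passed the filter. Against CSA the median of the 13 was −0.11, with P4HA2 at 0.59. The other genes hardly moved against CSA (NDRG1 −0.758 with all 6 libraries and −0.759 without VEN replicate 2). The mitophagy receptor BNIP3L, named after its values were seen, had 52.0 and 52.6 CPM in VEN+CSA cells, against 90.4 and 113 CPM in VEN cells and 74.0 and 74.5 CPM in CSA cells. Without VEN replicate 2 edgeR called NDRG1 lower against VEN (−1.23, adjusted p = 0.0480), with 0.147% of all genes called lower. HIF1A itself, also named afterwards, had 73.9 and 96.2 CPM in VEN+CSA cells, against 74.5 and 179 CPM in VEN cells and 69.5 and 78.5 CPM in CSA cells. The 16 tested regulators of glycolysis genes had medians of −0.09 against VEN, with 7 above 0 and 9 below, and 0.07 against CSA. Without VEN replicate 2 the median against VEN was 0.05, with 9 above 0 and 7 below. With all 6 libraries 1 was at an unadjusted edgeR p under 0.05 against VEN (EPAS1, higher) and 0 against CSA. Of all genes 10.8% and 3.64% met this rule. EdgeR and DESeq2 called 0 of the 16. MYC had 45.5 and 58.5 CPM in VEN+CSA cells, against 47.8 and 68.4 CPM in VEN cells and 40.7 and 42.5 CPM in CSA cells.

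**Figure D5:**
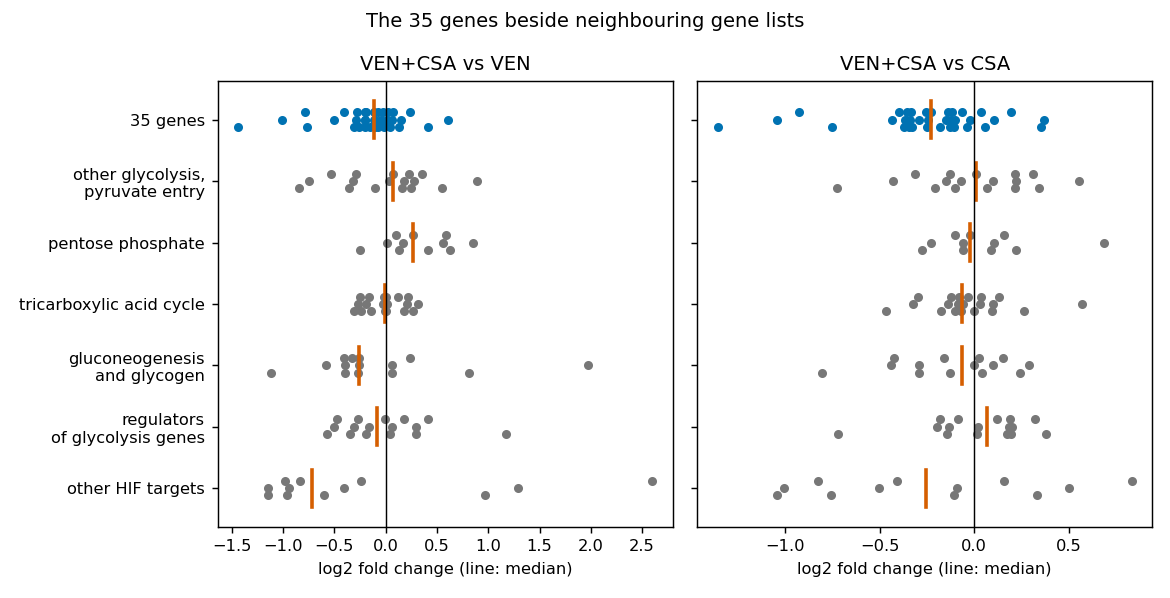
Log2 fold change of each tested gene (points) in the 35 genes and in neighbouring gene lists, with the median as a line, for VEN+CSA against VEN, left, and VEN+CSA against CSA, right. The median of the other HIF targets lies at −0.72 and −0.26 and that of the 35 genes at −0.11 and −0.23, and LDHA lies below every other point of the 35.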

How the data were processed

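Gene counts of 6 RNA-seq libraries (MV4-11 cells, 2 per group) were analysed. Per the labels' protocols, total RNA was isolated by Trizol and turned into Illumina libraries with a KAPA RNA HyperPrep kit, read in paired ends. The programs listed in the submitters' processing notes are STAR, RSEM and DESeq2, and the build is hg38, with no version or role for any of them. Whether counting used strand is not stated there. The authors deposited raw counts per gene as whole numbers. Of counts between 1 and 20, 64.8% to 66.7% were even, so error at low counts may exceed that of the count model. GENCODE 29 held 20224 of the 20263 identifiers, and 20148 had a symbol in the table of gene names. A further 2 count columns match no labelled sample and were left out. Samples were grouped by title.

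Genes passing filterByExpr (12690) were TMM-scaled and tested in 1 fit of all 6 libraries (3 residual degrees of freedom) with edgeR 4.0.16 in R 4.3.3, by the robust quasi-likelihood test, two-sided, with Benjamini-Hochberg adjustment over all genes tested and a threshold of 0.05. SE is that of the log2 fold change. Alternatives were DESeq2 1.42.0, limma-voom (limma 3.58.1) with and without library quality weights, other scalings and filters, only the libraries compared, a replicate block, removal of mitochondrially encoded genes, removal of each library's GC trend (loess, span 0.3), each library left out in turn, and, chosen after seeing the data, DESeq2 without VEN replicate 2. Leaving out a library assumes that the lone remaining one varies as the other groups do. Replicates of a group differed beyond sampling error (a chi-square of 31.5 to 846 for each degree of freedom) and were counted separately. The test script was checked on simulated data.

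Levels per kilobase used the median length of the principal transcripts in GENCODE 29. Replicate differences were taken on log2(CPM + 0.5). Promoter windows are the 250 bases upstream in the RefSeq table (GRCh38.p14). The members, the gene lists and the genes named were chosen with earlier results of these data known. Named were the members at each step of the pathway, those with unadjusted p under 0.05, up to 4 for VEN against CSA, and up to 3 genes of each other list by smallest p. SLC2A14, MYC, HIF1A, BNIP3L, P4HA2 and PDK4 were named outside this rule, after their values were seen. Some listed genes are not reported here.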

Additional observations from a re-analysis of the deposited data

How the results depend on the processing

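With 2 libraries per group and 3 residual degrees of freedom, counts of calls moved with the setting, and the cause was not tested. In VEN+CSA against VEN, 0 genes were called with all 6 libraries, against 311 in DESeq2, 15 with no filter, 49 with GC trends removed, 490 in DESeq2 without VEN replicate 2, and 0 to 3426 with a library left out (49 without VEN replicate 2). Members called were 0, against 1 in DESeq2, 5 in DESeq2 without VEN replicate 2, and 0 to 6 with a library left out. Their median of −0.11 was 0.10 under library size alone, −0.24 in DESeq2 without VEN replicate 2, and −0.24 to −0.017 with a library left out. In VEN+CSA against CSA, 0 genes were called, against 60 in DESeq2, 1 in limma-voom, 43 with quality weights, 4 with no filter, 24 in a fit of the 4 libraries compared, 256 in DESeq2 without VEN replicate 2, and 0 to 24 with a library left out. Members called were 0, against 1 each in DESeq2, quality weights and the fit of the 4 libraries compared, 5 in DESeq2 without VEN replicate 2, and 0 to 1 with a library left out. In VEN against CSA, 0 genes were called, against 63 in DESeq2, 2 with no filter, 107 in DESeq2 without VEN replicate 2, and 0 to 4385 with a library left out. Members called were 0 to 10 with a library left out, and their median of −0.03 was −0.30 under library size alone and −0.24 to 0.069 with a library left out. Signs turned for GAPDH against VEN (0.12 under library size alone, −0.34 to 0.27 with a library left out), PGAM1 against VEN (−0.52 to 0.0078 with a library left out) and LDHB against CSA (−0.15 to 0.095). In VEN against CSA they turned for BPGM (−0.029 under library size alone) and PDK1 (−0.11 under library size alone, −0.039 with GC trends removed, −0.0034 to 0.50 with a library left out, and −9.69e-04 in DESeq2 without VEN replicate 2). The labels do not say whether replicate numbers pair the libraries. Deviations of same-numbered libraries correlated at 0.16 to 0.25 between groups, and with the replicate block edgeR called 0 genes in the 3 comparisons, with member medians of −0.11, −0.23 and −0.07. LDHA kept its direction in the 18 alternatives of both comparisons.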

Other observations

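Genes that draw carbon away from glycolysis are described here by their levels. With all 6 libraries edgeR called 0 of the 14 tested genes of gluconeogenesis and glycogen. DESeq2 called 1 higher and 1 lower against VEN, where it called 2.45% of all genes, and 1 lower against CSA, where it called 0.473%. At an unadjusted edgeR p under 0.05, 2 were higher and 3 lower against VEN, where 10.8% of all genes met this rule. Against CSA 1 was lower, where 3.64% met it. GBE1, the glycogen branching enzyme, had 64.8 and 54.1 CPM in VEN+CSA cells, against 128 and 129.7 CPM in VEN cells and 105 and 103 CPM in CSA cells (log2 fold change −1.12, SE 0.16, against VEN and −0.80, SE 0.16, against CSA). GYS1, glycogen synthase, had 147 and 175 CPM in VEN+CSA cells, against 215 and 268 CPM in VEN cells and 188 and 207 CPM in CSA cells. Both genes were lowest in the combination, with no overlap with either drug, as were 9.73% of all genes. Without VEN replicate 2 the log2 fold change against VEN was −1.10 for GBE1 and −0.41 for GYS1, which was −0.58 with it. PCK2, the mitochondrial enzyme that makes phosphoenolpyruvate, had 72.5 and 54.6 CPM in VEN+CSA cells, against 22.2 and 10.2 CPM in VEN cells and 55.5 and 48.4 CPM in CSA cells. Both VEN libraries lay below both CSA libraries, as in 19.9% of all genes, and below both VEN+CSA libraries, as in 19.2%. The log2 fold change of PCK2 in VEN+CSA against VEN was 1.97, and 1.53 without VEN replicate 2. Without untreated cells, a level lowered by venetoclax and one raised by cyclosporine A cannot be told apart.

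Of the 11 genes of the pentose phosphate pathway, which supplies NADPH and ribose, 10 were above 0 in VEN+CSA against VEN (median 0.27) and 5 in VEN+CSA against CSA (median −0.02). At an unadjusted edgeR p under 0.05, 2 were higher against VEN and 1 against CSA, where 10.8% and 3.64% of all genes met this rule. With all 6 libraries edgeR and DESeq2 called 0 of the 11. PGD, its second NADPH-yielding enzyme, had 719.6 and 826 CPM in VEN+CSA cells, against 546 and 480.2 CPM in VEN cells and 647 and 679.5 CPM in CSA cells. PRPS2, which makes phosphoribosyl pyrophosphate, had 52.4 and 49.5 CPM in VEN+CSA cells, against 36.9 and 28.7 CPM in VEN cells and 32.4 and 30.8 CPM in CSA cells. Without VEN replicate 2, 7 of the 11 were above 0 against VEN, with a median of 0.16. The 13 mitochondrially encoded mRNAs had a median of −1.66 against VEN, and 0.91 without VEN replicate 2.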
